A study of Mus musculus with 19 samples.

Results

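The 34 genes described here encode proteins of ribosome biogenesis, and were taken as a list of symbols from among the 24972 genes in the deposited table of mouse plantaris tendon. The list was drawn up by function, from RNA polymerase I and its factors to the proteins that process and assemble both ribosomal subunits. All 34 had a row, and all 34 passed the filter on low values. The plantaris tendon joins a small calf muscle to the heel, and its RNA had been sequenced in 19 libraries. Control mice were Scx+, received no tamoxifen and had no growth stimulus (3 libraries). The other mice received tamoxifen and a growth stimulus, and were Scx+ or Scx- at 7 days or at 14 days (4 libraries in each of 4 groups). By the study's title, Scx- stands for a targeted deletion of scleraxis (Scx), a transcription factor of tendon cells. Alleles, the driver of any recombinase, strain, sex, age and the kind of stimulus are not given in the sources used here. Nothing states that replicates were separate animals, so each p-value measures the spread between libraries.

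Ribosome biogenesis starts in the nucleolus, where RNA polymerase I copies the ribosomal DNA repeats into a long precursor RNA. Small nucleolar ribonucleoproteins (snoRNPs) guide its chemical modification, large protein complexes cut and fold it, and assembly factors join it with ribosomal proteins into the small and the large subunit. Growing and dividing cells need many new ribosomes, and MYC and mTOR signalling are known to raise their production. In skeletal muscle, which adjoins the plantaris tendon, ribosome biogenesis is studied as part of the growth that follows overload.

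Values below are deposited signals rescaled between libraries by medians of ratios. The number of reads behind them is unknown. A fold change is on the log2(value + 2) scale with the standard error (SE) of a limma fit, and a gene rose or fell where its Benjamini-Hochberg adjusted p over 16625 tested genes was under 0.05. The deposited signal summed to 67.8 M to 79.8 M units per control library and 36.6 M to 48.5 M per stimulated library. Scx was at 1.7 to 17.2 in the 8 Scx- libraries, 318.7 to 592.6 in controls and 2095.7 to 8044.2 in stimulated Scx+ libraries. RNA of other tissues differed between groups. A list of 22 muscle fibre genes held 25% to 30% of the signal in controls. At day 7 its share was 0.0549% to 2.32% in Scx+ and 0.418% to 6.62% in Scx-, while Scx+ at day 14 had 0.298% to 9.24%. In Scx- at day 14 it held 17.2% and 20% in replicates 1 and 2, against 4.71% and 4.51% in replicates 3 and 4. The 12 tendon cell markers, Scx among them, held 0.102% to 0.451% of the control signal, 1.01% to 2.01% in stimulated Scx+ libraries and 0.189% to 0.795% in stimulated Scx- libraries. In such bulk RNA, fewer cells of a type and less RNA per cell cannot be told apart.

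Which of these genes differed between stimulated and control tendon was asked in 4 comparisons, which share the same 3 control libraries. In these the stimulus cannot be told apart from tamoxifen, nor, for Scx- mice, from the genotype, since no unstimulated Scx- group is among the samples. The genes moved apart from one another rather than together. Npm1, Taf1d, Nop58 and Gnl3 rose in all 4 stimulated groups, Nop58 in Scx+ at day 14 only without an allowance for muscle signal, as given below. Wdr12, Dkc1, Polr1a, Rrn3, Nop2, Utp20, Nat10 and Noc2l fell in all 4, although most of these falls depended on how libraries were scaled, as given below. Pes1, Polr1e, Ubtf, Wdr43, Rrp1b, Noc3l and Heatr1 passed in none.

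In Scx+ at day 7, 6 members rose and 13 fell, where 61.3% of all tested genes passed (33.8% higher and 27.5% lower). In Scx- at day 7, 8 rose and 13 fell, where 58.2% of all genes passed (32.3% higher and 25.9% lower). In Scx+ at day 14, 5 rose and 18 fell, where 55.9% of all genes passed (30.9% higher and 25% lower). In Scx- at day 14, 6 rose and 9 fell, where 43.9% of all genes passed (25.5% higher and 18.3% lower). The share of members that passed was 55.9%, 61.8%, 67.6% and 44.1% in this order, near that of all genes except in Scx+ at day 14, and their split leaned lower where that of all genes leaned higher. The members' median log2 fold change was -0.26, -0.20, -0.50 and -0.24 in the same order, beside 0.18, 0.14, 0.15 and 0.12 over all tested genes. Counted by libraries alone, 7 members lay wholly above and 15 wholly below all controls in Scx+ at day 7 (33.4% and 28.9% of all genes), and 6 and 13 in Scx- at day 7 (30.8% and 27.3%). At day 14 these were 3 and 19 in Scx+ (26.9% and 25%) and 7 and 7 in Scx- (20.7% and 17.4%).

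That split depended on scaling. With library totals in place of medians of ratios, the median of all genes against the control shifted to 0.83 (Scx+ day 7), 0.81 (Scx- day 7), 0.73 (Scx+ day 14) and 0.58 (Scx- day 14). On that scale 18 members rose and 2 fell in Scx+ at day 7, 19 and 0 in Scx- at day 7, 12 and 5 in Scx+ at day 14, and 12 and 1 in Scx- at day 14. Over all genes 11420, 10933, 10537 and 8568 were called with library totals in the same order, against 10192, 9677, 9293 and 7291 after medians of ratios. Of all calls, 78.6% to 84.1% were then higher, against 55.1% to 58.2% after medians of ratios, so the members' lean to higher went with that of all genes. On the deposited scale, with no rescaling, 2 members rose and 19 fell in Scx- at day 14, where the median of all genes was -0.20 and 35.2% of all calls were higher. Npm1, Taf1d, Nop58 and Gnl3 rose on both of these other scales in both Scx+ groups and in Scx- at day 7. On the deposited scale in Scx- at day 14, Npm1 and Taf1d rose, Nop58 was at 0.34 (adjusted p = 0.162) and Gnl3 at 0.30 (adjusted p = 0.13). With library totals, Rrp12 and Polr1a were the only 2 members to fall in Scx+ at day 7, and Polr1a the only one in Scx- at day 14.

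**Figure D1:**
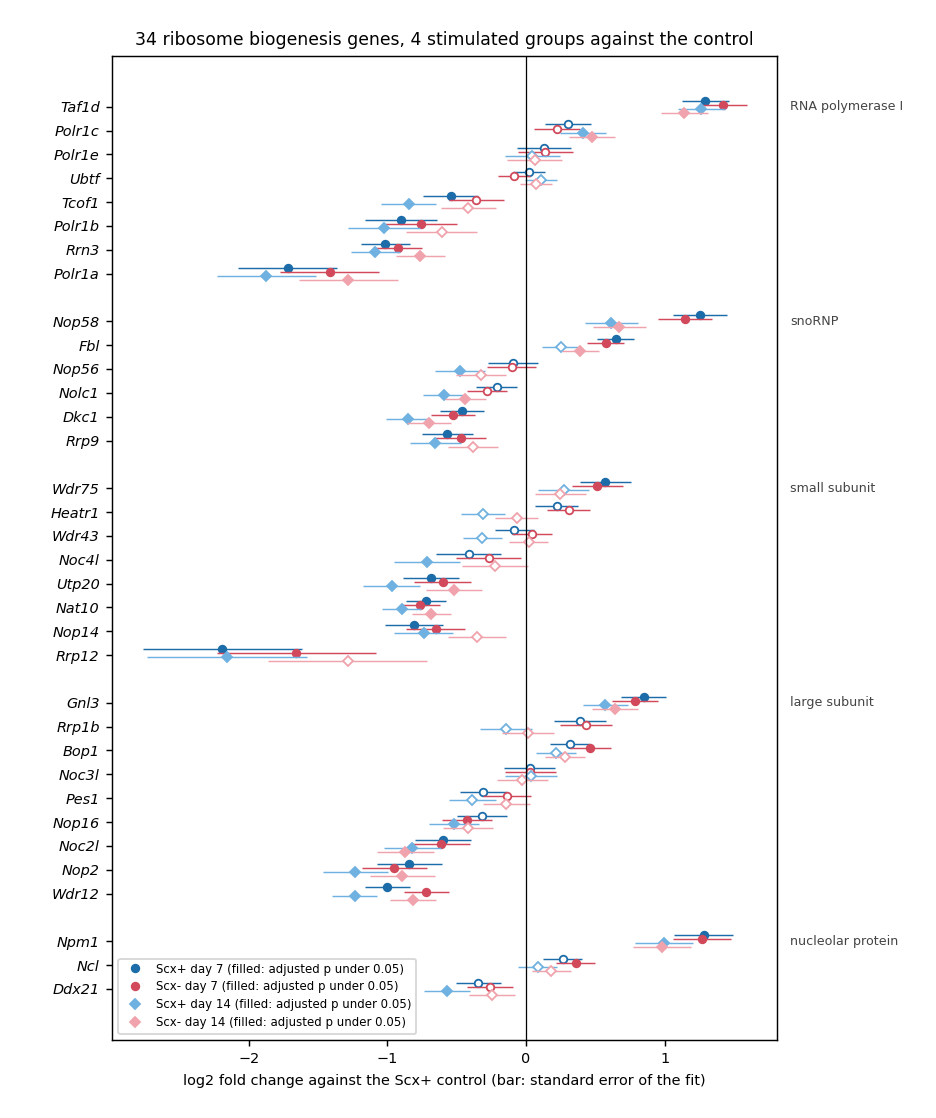
Log2 fold change of the 34 genes against the Scx+ control (x axis) in the 4 stimulated groups, grouped by role, with the standard error of the fit as bars. Filled symbols passed the test: Taf1d, Nop58, Gnl3 and Npm1 lie right of 0 in all 4 groups, and Rrp12 and Polr1a lie farthest left.

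The promoters of these genes were searched for the E-box CACGTG, the site that MYC with its partner MAX is known to bind, since MYC is the textbook activator of this gene class. The word is its own reverse complement, so both strands were read at once. Windows of 250 bases before to 50 after the annotated start came from RefSeq (GRCm38.p6) and matched 29 of the 34 members by symbol, without Bop1, Fbl, Npm1, Rrp12 and Tcof1. The E-box was in 5 of these 29 (17.2%), against 8.09% of 27025 genes with such a window. The sites are printed with the E-box in capitals, 5′ to 3′ on the gene's strand, to show which members carry it.
Nop2, chr6:125131811-125131840, + strand: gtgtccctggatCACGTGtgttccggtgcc
Utp20, chr10:88826765-88826789, - strand: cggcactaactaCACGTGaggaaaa
Pes1, chr11:3963965-3963994, + strand: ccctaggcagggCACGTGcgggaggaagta
Rrn3, the farther site, chr16:13780472-13780501, + strand: gagcgccaaggtCACGTGcacacgcctcta
Rrn3, the nearer site, chr16:13780639-13780668, + strand: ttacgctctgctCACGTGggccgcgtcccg
Wdr43, chr17:71616220-71616249, + strand: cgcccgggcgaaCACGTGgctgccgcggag
The E-box began 60 bases before the start in Nop2, 215 and 48 bases before it in Rrn3, and 2, 17 and 37 bases past the first transcribed base in Pes1, Wdr43 and Utp20. Against the control, Nop2, Rrn3 and Utp20 fell in all 4 groups, and Pes1 and Wdr43 passed in none. A match in such a window is a description of its letters, not a measured binding site.

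Of 8 genes of RNA polymerase I transcription, Taf1d rose in all 4 groups and Polr1a and Rrn3 fell in all 4. Taf1d encodes a subunit of SL1, the factor that selects the ribosomal promoter. Its signal was 355, 539 and 456 in the controls, 936, 1134, 1209 and 1097 in Scx+ and 1252, 1227, 891 and 1472 in Scx- at day 7, and 959.5, 1194, 1097.5 and 1032 in Scx+ and 994, 959, 914 and 1061 in Scx- at day 14. All 16 stimulated libraries lay above all 3 controls. The log2 fold change was 1.29 ± 0.17 (adjusted p = 6.51e-06) in Scx+ and 1.42 ± 0.17 (adjusted p = 3e-06) in Scx- at day 7, and 1.26 ± 0.17 (adjusted p = 1.29e-05) and 1.14 ± 0.17 (adjusted p = 7.23e-05) at day 14. Polr1a, the largest subunit of the enzyme, went the other way. Its signal was 3087, 5257 and 4005 in the controls, 942, 1117, 1542 and 1368 in Scx+ and 1591, 2155, 1542 and 972 in Scx- at day 7, and 963, 1089, 826 and 1665 in Scx+ and 2593, 2649, 1081 and 1000.5 in Scx- at day 14. Every stimulated library lay below every control, and replicates 1 and 2 of Scx- at day 14 lay nearest to them. The log2 fold change was -1.72 ± 0.36 (adjusted p = 0.000501) in Scx+ and -1.42 ± 0.36 (adjusted p = 0.00265) in Scx- at day 7, and -1.87 ± 0.36 (adjusted p = 0.000306) and -1.28 ± 0.36 (adjusted p = 0.00785) at day 14.

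Rrn3, which brings the polymerase to the promoter, was at 2897.5, 3936 and 3941 in the controls, 1701, 1590.5, 1939.9 and 1815 in Scx+ and 1962, 2051, 1794 and 1692 in Scx- at day 7, and 1529.7, 1723, 1663 and 1787.5 in Scx+ and 2722, 2618, 1611 and 1673.5 in Scx- at day 14. The controls lay above all stimulated libraries. It fell by 1.02 and 0.93 at day 7 and by 1.09 and 0.76 at day 14 (log2, Scx+ and Scx-), with adjusted p from 8.2e-05 to 0.0024. With library totals its change was -0.34 (adjusted p = 0.05) and -0.23 (adjusted p = 0.183) at day 7 and -0.48 (adjusted p = 0.00956) and -0.29 (adjusted p = 0.114) at day 14. Polr1b, the second largest subunit, fell by 0.90 in Scx+ at day 7, 0.76 in Scx- at day 7 and 1.02 in Scx+ at day 14, and was at -0.61 ± 0.26 (adjusted p = 0.0635) in Scx- at day 14. Polr1c, a subunit shared with RNA polymerase III, rose at day 14 by 0.41 in Scx+ (adjusted p = 0.0424) and 0.47 in Scx- (adjusted p = 0.0287). Tcof1, whose protein treacle acts in ribosomal DNA transcription, fell in Scx+ by 0.54 at day 7, turning to 0.13 (adjusted p = 0.504) with library totals, and by 0.85 at day 14. Its change in Scx- was -0.36 ± 0.20 (adjusted p = 0.128) and -0.42 ± 0.20 (adjusted p = 0.0968). Ubtf, which holds ribosomal DNA open, stayed between -0.08 and 0.11, and Polr1e, a subunit of the enzyme, between 0.05 and 0.14; neither passed. Some of these calls rested on single libraries. Tcof1 in Scx+ at day 7 lost its call without control replicate 2 or Scx+ day 7 replicate 1 or 3 (adjusted p up to 0.156), and Polr1b in Scx- at day 7 without control replicate 2 or 3 or Scx- day 7 replicate 4 (up to 0.0671). Polr1c lost its call at day 14 without control replicate 2 or 3, in Scx+ also without replicate 2 or 3 (up to 0.22) and in Scx- without replicate 2 or 4 (up to 0.157).

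Of 6 genes for snoRNP proteins, Nop58 rose and Dkc1 fell in all 4 groups. Nop58, Nop56 and Fbl encode core proteins of the box C/D snoRNPs, which methylate ribosomal RNA, and Fbl is the methyltransferase. The signal of Nop58 was 702, 780.2 and 1028 in the controls, 2017, 2109.9, 1977 and 1811 in Scx+ and 2160, 2009, 1579 and 1628 in Scx- at day 7, and 1707, 1346, 1158 and 967 in Scx+ and 1112, 1233, 1280.1 and 1716 in Scx- at day 14. Replicate 4 of Scx+ at day 14 lay within the control range, and the other 15 stimulated libraries lay above it. The log2 fold change was 1.26 ± 0.19 (adjusted p = 3.26e-05) and 1.14 ± 0.19 (adjusted p = 9.09e-05) at day 7 and 0.62 ± 0.19 (adjusted p = 0.0122) and 0.67 ± 0.19 (adjusted p = 0.0097) at day 14, in Scx+ and Scx-. Fbl rose in 3 groups, by 0.65 in Scx+ and 0.57 in Scx- at day 7 and by 0.39 in Scx- at day 14, and was at 0.25 ± 0.13 (adjusted p = 0.12) in Scx+ at day 14. Nop56, the partner of Nop58 in the same particle, did not share its rise: it was at -0.09 ± 0.18 (adjusted p = 0.665) and -0.10 ± 0.18 (adjusted p = 0.634) at day 7, fell by 0.48 in Scx+ at day 14 (adjusted p = 0.0307), and was at -0.33 ± 0.18 (adjusted p = 0.146) in Scx- at day 14. With library totals the fall of Nop56 became a change of 0.13 (adjusted p = 0.508).

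Dkc1, the pseudouridine synthase of the box H/ACA snoRNPs, fell by 0.46 and 0.53 at day 7 and by 0.85 and 0.70 at day 14 (log2, Scx+ and Scx-). All stimulated libraries lay below the controls, at 662.1 to 1272 against 1368.9 to 1601.5. With library totals the change of Dkc1 was 0.22 (adjusted p = 0.313) and 0.17 (adjusted p = 0.429) at day 7, so its direction turned. Rrp9, a protein of the U3 snoRNP, fell by 0.57, 0.47 and 0.65 in Scx+ and Scx- at day 7 and Scx+ at day 14, and was at -0.38 ± 0.18 (adjusted p = 0.0972) in Scx- at day 14. With library totals it too turned, to 0.11 (adjusted p = 0.567) in Scx+ and 0.22 (adjusted p = 0.229) in Scx- at day 7. Nolc1, a snoRNP chaperone, fell at day 14 by 0.59 in Scx+ and 0.44 in Scx-, changes of 0.01 (adjusted p = 0.936) and 0.04 (adjusted p = 0.848) with library totals. Single libraries decided some of these calls. Dkc1 in Scx+ at day 7 and Nop58 in Scx+ at day 14 each lost the call without control replicate 1 (adjusted p = 0.0614 and 0.0647). Nop56 in Scx+ at day 14 lost it without control replicate 2 or 3 or its own replicate 3 (up to 0.12), and Rrp9 in Scx- at day 7 without control replicate 2 or 3 or its own replicate 3 or 4 (up to 0.0965). In Scx- at day 14, Fbl lost it without control replicate 2 or 3 or replicate 4 (up to 0.14), and Nolc1 without control replicate 2 or replicate 3 or 4 (up to 0.102).

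Of 8 small subunit factors, Nat10 and Utp20 fell in all 4 groups, and Rrp12, the lowest of the 34 by estimate in all 4, fell in 3. Rrp12 acts in the maturation and export of pre-ribosomes. Its signal was 2785, 4871 and 4166 in the controls, 662, 628, 1235 and 963 in Scx+ and 1461.5, 1856.5, 1332 and 604 in Scx- at day 7, and 488, 956, 617 and 1879 in Scx+ and 3016.5, 3581, 840.4 and 670.1 in Scx- at day 14. Replicates 1 and 2 of Scx- at day 14 lay within the control range, and the other 14 stimulated libraries lay below it. The log2 fold change was -2.19 ± 0.58 (adjusted p = 0.00352) in Scx+ and -1.66 ± 0.58 (adjusted p = 0.0209) in Scx- at day 7, and -2.16 ± 0.58 (adjusted p = 0.00461) and -1.29 ± 0.58 (adjusted p = 0.0794) at day 14. Without replicates 1 and 2 of Scx- at day 14, an alternative chosen after their muscle signal was seen, that last change was -2.36 (adjusted p = 0.00167). With library totals the fall of Rrp12 in Scx- at day 7 was no longer called, at -0.96 (adjusted p = 0.113). Nat10, the acetyltransferase of the small subunit RNA, was at 1908.1 to 2088.1 in the controls and 959.9 to 1595.4 in all stimulated libraries. Its widest spread was in Scx- at day 14, at 1595, 1337, 1035 and 1079, where the muscle-rich replicates 1 and 2 were again the high ones. It fell by 0.72 and 0.76 at day 7 and by 0.90 and 0.68 at day 14 (log2, Scx+ and Scx-), and with library totals its changes were -0.05 to -0.29 and none passed.

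Utp20, a scaffold protein of the early small subunit particle, fell by 0.68 and 0.60 at day 7 and by 0.97 and 0.52 at day 14. With library totals it was at 0.10 (adjusted p = 0.688) in Scx- at day 7, in the other direction. Nop14, which binds the same particle, fell by 0.81, 0.65 and 0.74 in Scx+ and Scx- at day 7 and Scx+ at day 14. With library totals it was at 0.05 (adjusted p = 0.838) in Scx- at day 7, also turned. Noc4l, its partner, fell in Scx+ at day 14 alone among the 4 comparisons, by 0.71 (adjusted p = 0.0161). Wdr75, of the complex that first meets the precursor RNA, rose at day 7 by 0.57 in Scx+ and 0.51 in Scx-. Its fellow subunits did not pass: Heatr1 ranged from -0.31 (Scx+ day 14) to 0.31 (Scx- day 7), and Wdr43 from -0.32 to 0.04. Utp20 lost its call without control replicate 2 in Scx+ at day 7 (adjusted p = 0.0507), without control replicate 2 or its own replicate 4 in Scx- at day 7 (up to 0.0951), and without control replicate 2 or 3 or its own replicate 2, 3 or 4 in Scx- at day 14 (up to 0.205). Wdr75 lost it without control replicate 1 in Scx+ (0.0933) and without control replicate 1 or 2 or its own replicate 2 in Scx- (up to 0.161). Noc4l lost it without control replicate 2 or 3 or its own replicate 1 (up to 0.102), and Rrp12 in Scx- at day 7 without control replicate 2 or 3 or its own replicate 4 (up to 0.0713).

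Of 9 large subunit factors, Gnl3 rose and Wdr12, Nop2 and Noc2l fell in all 4 groups. Gnl3, the nucleolar GTPase nucleostemin, is known from stem and dividing cells. Its signal was 1400, 1687 and 1690.5 in the controls, 3215, 2892, 2878 and 2493 in Scx+ and 3089, 2939, 2195 and 2815 in Scx- at day 7, and 2617, 2525, 2426 and 1935 in Scx+ and 2265.5, 2689, 2004 and 3079 in Scx- at day 14. The controls lay below every stimulated library. The log2 fold change was 0.85 ± 0.16 (adjusted p = 0.000255) and 0.79 ± 0.16 (adjusted p = 0.000571) at day 7 and 0.57 ± 0.16 (adjusted p = 0.00663) and 0.64 ± 0.16 (adjusted p = 0.00448) at day 14. Wdr12, Pes1 and Bop1 form the PeBoW complex of large subunit processing, and the 3 did not move together. Wdr12 was at 1276, 1627 and 1632 in the controls, 829, 709.6, 707 and 759.8 in Scx+ and 983, 936, 814 and 921 in Scx- at day 7, and 574, 799.6, 619.6 and 579 in Scx+ and 929.7, 1069, 706 and 752 in Scx- at day 14. No stimulated library reached the controls. Its log2 fold change was -1.0 ± 0.16 (adjusted p = 5.57e-05) and -0.72 ± 0.16 (adjusted p = 0.00117) at day 7 and -1.23 ± 0.16 (adjusted p = 1.12e-05) and -0.82 ± 0.16 (adjusted p = 0.000795) at day 14. With library totals Wdr12 kept its call in Scx+ at day 14, at -0.63 (adjusted p = 0.00162), and lost it in the other 3 groups, at -0.02 to -0.34. Pes1 stayed between -0.39 and -0.14 and passed in none here. The authors' deposited table lists Pes1 as lower in Scx+ at day 7, at -0.30 (adjusted p = 0.0354).

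Nop2, a methyltransferase of the large subunit RNA, was at 1528, 2152 and 2409.7 in the controls, 1153, 1146, 1140.4 and 1006 in Scx+ and 1279.8, 1219, 948 and 761 in Scx- at day 7, and 912, 890.2, 627 and 1014 in Scx+ and 1181, 1543, 783 and 929.5 in Scx- at day 14. Among stimulated libraries, 1 of Scx- at day 14 (replicate 2) overlapped the lowest control. Nop2 fell by 0.84 and 0.95 at day 7 and by 1.23 and 0.89 at day 14 (log2, Scx+ and Scx-), with adjusted p from 0.000311 to 0.00565. With library totals it was called in Scx+ at day 14 alone, at -0.62 (adjusted p = 0.0145), and lay at -0.17 to -0.42 in the others. Noc2l, a partner of Noc3l in large subunit maturation, was at 4293, 3437 and 3537 in the controls. At day 7 it was at 2276, 2577, 2543 and 2478 in Scx+ and 2485, 2843, 2096 and 2419.9 in Scx-. At day 14 it was at 2104, 2016, 1899 and 2487 in Scx+ and 2530.3, 3023, 1462 and 1559 in Scx-. It fell by 0.60 and 0.61 at day 7 and by 0.82 and 0.87 at day 14. With library totals it turned to 0.08 (adjusted p = 0.721) and 0.09 (adjusted p = 0.688) at day 7. Of the exonic bases of Noc2l, 20.9% are shared with Samd11 on the other strand, and whether counting used the strand is not given in the sources used here. Noc3l lay between -0.03 and 0.04 and Rrp1b between -0.14 and 0.44, and neither passed. Nop16, of early large subunit particles, fell by 0.42 in Scx- at day 7 (adjusted p = 0.0499) and 0.52 in Scx+ at day 14. With library totals these became 0.27 (adjusted p = 0.16) and 0.09 (adjusted p = 0.669). Noc2l lost its call at day 7 without control replicate 1, in Scx+ (0.0707) and Scx- (0.0662). Nop16 lost it in Scx+ at day 14 without control replicate 2 or its own replicate 4 (up to 0.0992), and in Scx- at day 7 without control replicate 2 or 3 or any of its own 4 (up to 0.193).

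The 3 abundant nucleolar proteins also differed. Npm1, nucleophosmin, is a chaperone that carries histones and ribosomal proteins. Its signal was 6946, 6516 and 7398 in the controls, 18267, 17741, 15945 and 15695 in Scx+ and 14840.5, 16552, 13815 and 23072 in Scx- at day 7, and 14419.9, 16675, 17055 and 9002 in Scx+ and 12289, 14937, 12054 and 15986.5 in Scx- at day 14. All stimulated libraries lay above the controls, and replicate 4 of Scx+ at day 14 was nearest to them. The log2 fold change was 1.28 ± 0.21 (adjusted p = 6.15e-05) and 1.27 ± 0.21 (adjusted p = 7.7e-05) at day 7 and 1.0 ± 0.21 (adjusted p = 0.000742) and 0.98 ± 0.21 (adjusted p = 0.00137) at day 14, in Scx+ and Scx-. Npm1 and Taf1d kept their rise in all 4 groups under every alternative run. Ncl, nucleolin, rose in Scx- at day 7 by 0.36 ± 0.14 (adjusted p = 0.0367), a call lost without any 1 of the 3 controls or Scx- day 7 replicate 1, 2 or 4 (up to 0.118). In the other groups Ncl was at 0.27, 0.08 and 0.18, in Scx+ at day 7, Scx+ at day 14 and Scx- at day 14. Ddx21, an RNA helicase of the nucleolus, fell in Scx+ at day 14 by 0.57 (adjusted p = 0.00683), which was 0.04 (adjusted p = 0.862) with library totals. It was at -0.35, -0.26 and -0.25 in Scx+ at day 7, Scx- at day 7 and Scx- at day 14.

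**Figure D2:**
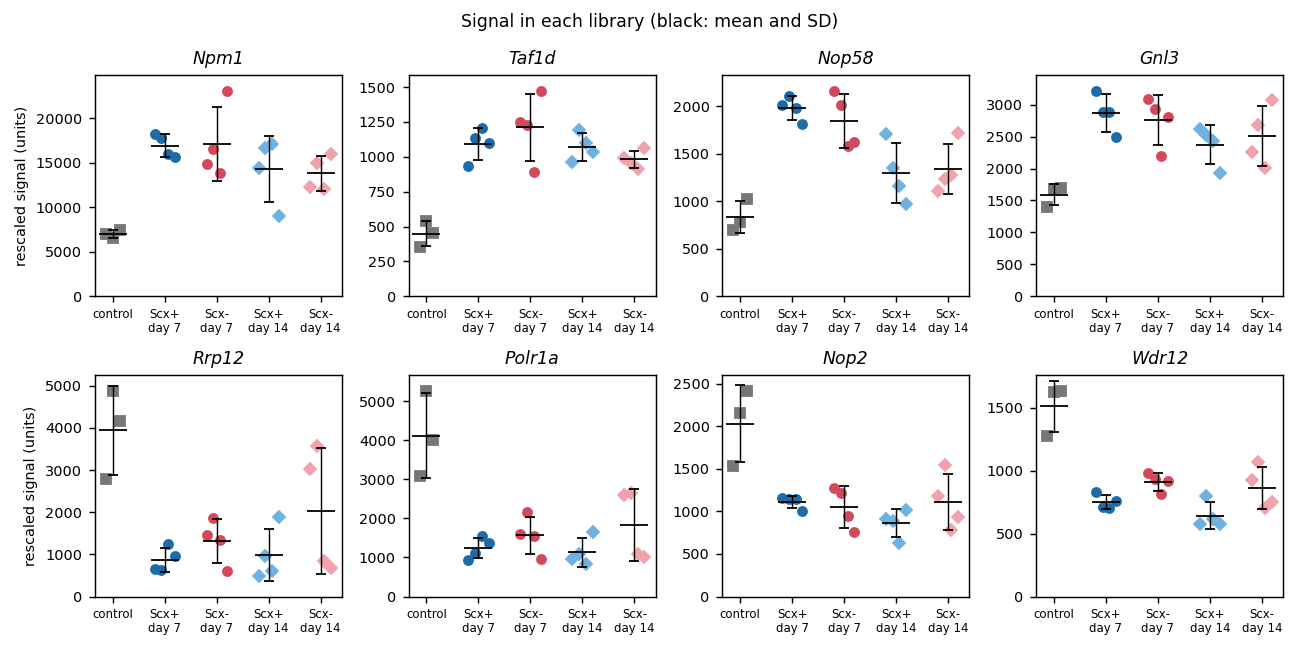
Rescaled signal (y axis, from 0) of 4 genes that rose and 4 that fell against the control, 1 point per library by group, with the group mean and SD in black. Npm1, Taf1d and Gnl3 lie above all controls in all 16 stimulated libraries, and replicates 1 and 2 of Scx- day 14 lie high in Rrp12 and Polr1a.

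Ratios of 2 members within a library do not depend on how libraries are scaled. The pairs were chosen after their changes were known, so the ratios describe and test nothing. Within RNA polymerase I transcription, Taf1d to Polr1a was 0.102 to 0.115 in the controls, 0.784 to 1.02 in Scx+ and 0.569 to 1.51 in Scx- at day 7, and 0.62 to 1.33 and 0.362 to 1.06 at day 14. Within the box C/D particle, Nop58 to Nop56 was 0.299 to 0.399 in the controls, 0.865 to 0.955 and 0.815 to 0.899 at day 7, and 0.56 to 0.894 and 0.524 to 0.942 at day 14. Among large subunit factors, Gnl3 to Wdr12 was 1.04 to 1.1 in the controls and 3.28 to 4.08, 2.7 to 3.14, 3.16 to 4.56 and 2.44 to 4.09 in Scx+ and Scx- at day 7 and Scx+ and Scx- at day 14. In these 3 ratios every stimulated library exceeded every control, whatever the scale. Npm1 to Rrp12 was at 1.34 to 2.49 in the controls, 12.9 to 28.2 in Scx+ and 8.92 to 38.2 in Scx- at day 7, and 4.79 to 29.5 and 4.07 to 23.9 at day 14.

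Muscle signal and the members that fell were both high in the controls. Within the controls and within both day 14 groups, Rrp12 followed the order of muscle fibre signal, and at day 7 it did so in part. In Scx+ at day 7, replicates 1 and 2, with 0.261% and 0.0549%, had Rrp12 at 662.2 and 628 and Polr1a at 941.9 and 1116.8. Replicates 3 and 4, with 2.21% and 2.32%, had Rrp12 at 1234.9 and 962.6 and Polr1a at 1541.9 and 1367.7. Of the 22 muscle fibre genes, 17 fell in Scx+ and 12 in Scx- at day 7, 13 in Scx+ and 1 in Scx- at day 14, and 2, 2, 2 and 3 rose. Control libraries, at 25% to 30% muscle fibre signal, had the 3 highest values of Polr1a. In Scx- at day 14, replicates 1 and 2, with 17.2% and 20% muscle fibre signal, had Rrp12 at 3016.5 and 3580.9 and Polr1a at 2592.8 and 2649.2. Replicates 3 and 4, with 4.71% and 4.51%, had Rrp12 at 840.4 and 670.1 and Polr1a at 1081 and 1000.5. The muscle-rich libraries of that group were thus the high ones for both genes, which had the largest falls among the members. Other members that fell in all 4 comparisons did not all share this order. In control replicate 1, with the least muscle fibre signal of the controls (25%), Dkc1 and Noc2l were highest of the controls. Wdr12, Polr1a, Rrn3, Nop2 and Utp20 were lowest there, and Nat10 lay between. In Scx+ at day 14, replicate 4, with the most muscle fibre signal of its group (9.24%), had the group's highest Rrp12 (1878.6) and Polr1a (1665.2) and its lowest Npm1 (9002). In Scx- at day 7 the order differed in replicate 3. It had the most muscle fibre signal (6.62%) but Rrp12 at 1332.4 and Polr1a at 1541.6. These were below replicate 2 (3.86%), at 1856.5 and 2155.3, and replicate 1 (2.61%), at 1461.5 and 1591.4. Replicate 3 also had the group's lowest Dkc1, at 826.6. Replicate 4, with the least muscle fibre signal (0.418%), had the group's lowest Rrp12 (604.5) and Polr1a (972.3) and its highest Npm1 (23071.8). Adding the mean of the muscle list to the fit as a covariate left 5 members higher and 3 lower in Scx+ at day 7, 6 and 6 in Scx- at day 7, 3 and 17 in Scx+ at day 14, and 6 and 11 in Scx- at day 14. Calls over all genes dropped as well. They were 10192 in Scx+ at day 7, 9677 in Scx- at day 7 and 9293 in Scx+ at day 14 without the covariate, and 6434, 8346 and 8032 with it. In that fit Rrp12 was at -0.63 (adjusted p = 0.32) and Polr1a at -0.88 (adjusted p = 0.0634) in Scx+ at day 7, while Npm1 was at 0.98 (adjusted p = 0.00655) and Taf1d at 1.26 (adjusted p = 0.000444). Wdr12, Rrn3 and Nat10 were the 3 that still fell there, by 0.85, 0.66 and 0.51. Dkc1 was at -0.42 (adjusted p = 0.137) in Scx+ at day 7, and Nop58 lost its rise in Scx+ at day 14, at 0.48 (adjusted p = 0.0526). The muscle fibre share of the controls, at 25% to 30%, overlapped that of no stimulated library. Muscle signal and group therefore cannot be fully told apart in this fit. Leaving out the muscle-rich pair gave 4 members higher and 17 lower in Scx- at day 14, against 6 and 9 with them. Adipocyte markers were also high in controls, at 0.231% to 0.291% of the signal against 0.00727% to 0.107% in stimulated libraries, and macrophage markers low, at 0.0394% to 0.0912% against 0.104% to 0.835%. All 9 adipocyte markers fell in all 4 comparisons, and all 14 macrophage markers rose in both day 7 groups, 11 in Scx+ and 8 in Scx- at day 14. Of 9 erythroid markers, 8 rose in Scx+ and 3 fell in Scx- at day 7, and 3 rose in Scx+ at day 14, with 0 called in Scx- at day 14. They held 0.041% to 0.0622% of the control signal, 0.841% to 3.75% in Scx+ and 0.000899% to 0.038% in Scx- at day 7, and 0.0705% to 0.252% and 0.00461% to 0.112% at day 14. Hbb-bs and Epb42 were at 0 in all controls. Of 10 lymphocyte markers, 7, 6, 4 and 3 rose in Scx+ and Scx- at day 7 and Scx+ and Scx- at day 14. They held 8.54e-05% to 0.000218% of the control signal and 0.000327% to 0.00219% of that of stimulated libraries. No gene of the muscle, adipocyte or macrophage lists was at 0 throughout a group (0 of 22, 9 and 14). The part of the adipocyte, macrophage, erythroid and lymphocyte markers in these differences was not tested.

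**Figure D3:**
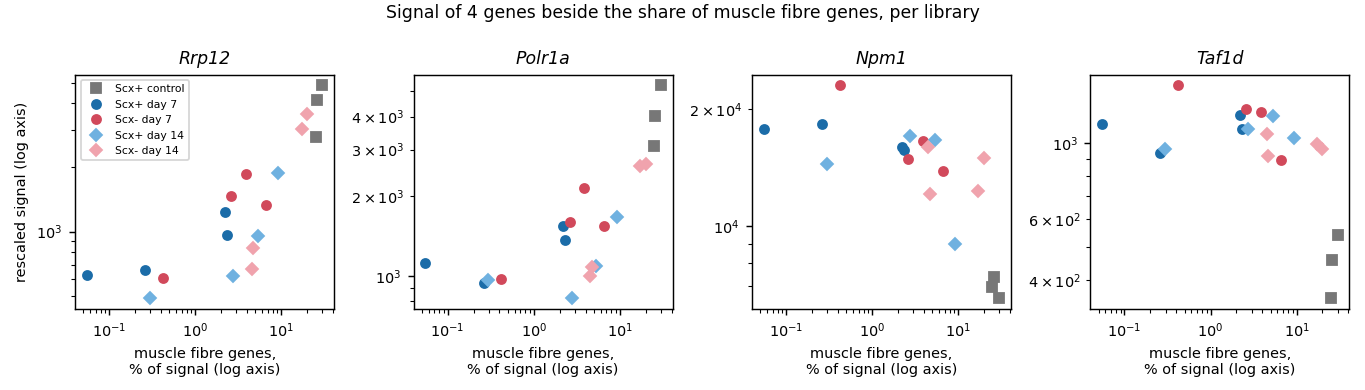
Rescaled signal (y axis, log scale) of Rrp12, Polr1a, Npm1 and Taf1d beside the share of 22 muscle fibre genes in the signal (x axis, log scale), 1 point per library. Rrp12 and Polr1a are highest in the controls and in replicates 1 and 2 of Scx- day 14, at 17.2% and 20% muscle signal, while Taf1d is lowest in the 3 controls.

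Together the 34 genes held 0.122% ± 0.00217 of the deposited signal in controls (SD, n = 3), 0.196% ± 0.00719 in Scx+ and 0.207% ± 0.0257 in Scx- at day 7, and 0.163% ± 0.0135 and 0.165% ± 0.0137 at day 14 (SD, n = 4 each). Of the signal outside the muscle fibre genes they held 0.167% ± 0.00399, 0.199% ± 0.00905, 0.214% ± 0.0232, 0.171% ± 0.0112 and 0.187% ± 0.0217 in the same order. The day 14 groups overlapped the controls on this second share. Both are shares of totals, and the deposited totals were larger in the controls. The members' mean log2(value + 2) was 10.8 ± 0.131 in controls (SD). It was 10.6 ± 0.0442 in Scx+ and 10.7 ± 0.171 in Scx- at day 7, and 10.4 ± 0.0772 and 10.6 ± 0.225 at day 14. Cytosolic ribosomal protein genes, whose products join the ribosomal RNA, held 1.75% to 2.51% of the control signal and 2.96% to 5.39% of that of stimulated libraries. Per kilobase of annotated exon, the control levels ran from 2610 for Npm1, 1310 for Noc2l and 1220 for Ncl down to 82.4 for Polr1e, 77.8 for Nop58 and 50.3 for Taf1d (mean rescaled signal per kilobase, n = 3). Lengths are unions of all annotated exons and may exceed that of the main transcript. In Scx+ at day 7, Npm1 stood at 6350, Taf1d at 122 and Polr1a at 105 on the same scale, from 347 for Polr1a in the controls.

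Whether loss of Scx changed these genes was asked at each day. No member passed in Scx- against Scx+ at day 7 (limma, 0 of 34, and 0 in the authors' deposited table), where 0.77% of all tested genes passed, and none had an unadjusted p under 0.05, against 1207 of 16625 genes. The smallest p was that of Wdr12, at 983, 936, 814 and 921 in Scx- against 829, 709.6, 707 and 759.8 in Scx+, a log2 fold change of 0.28 ± 0.15 (adjusted p = 0.776) with a 95% interval of -0.04 to 0.60. The groups overlapped in 1 library, the Scx- library at 814. Bop1 was next, at 0.15 ± 0.13 (adjusted p = 0.883). For Rrp12 the interval was wide, -0.59 to 1.66, and for the other 33 members the intervals lay within -0.56 and 1.0. Cell type markers differed between the same groups. The 9 erythroid markers held 0.841% to 3.75% of the signal in Scx+ and 0.000899% to 0.038% in Scx- at day 7, where 7 of them were lower in Scx-, with Hbb-bs at 0 in all 4 Scx- libraries. Of the 12 tendon cell markers, 4 were lower in Scx- at day 7 and 3 at day 14, with none at 0 throughout a group. Scx itself is among these 12, and its lower signal in Scx- comes with the genotype. Of the 14 macrophage markers, 13 leaned higher in Scx- at day 7 (median 0.50) and 1 was called, and all 22 muscle fibre genes leaned higher in Scx- at both days (median 2.12 at day 7 and 1.95 at day 14) with 0 called. At day 14 the medians were -0.24 for macrophage and 1.54 for adipocyte markers, with 0 called. Their part in the values of the 34 genes was not tested.

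At day 14 again no member passed (limma, 0 of 34, and 0 in the authors' deposited table, where 0.517% of all genes passed by limma). Wdr12, Wdr43, Utp20, Tcof1, Noc4l and Ddx21 had an unadjusted p under 0.05, 6 of 34 against 2429 of 16625 genes, and all 6 were higher in Scx-. Wdr12 had the smallest p, at 0.42 ± 0.15 (adjusted p = 0.248), with 929.7, 1069, 706 and 752 in Scx- and 574, 799.6, 619.6 and 579 in Scx+. Wdr43 followed, at 0.33 ± 0.13 (adjusted p = 0.276), with 2519, 2937, 1898 and 2320.4 against 1814, 2124, 1824 and 1834, and in both genes the groups overlapped. Utp20, at 1437, 1179, 1058.5 and 1012 in Scx- and 887, 964, 639 and 952 in Scx+, was the single member whose groups did not overlap, where 1.87% of all genes lay wholly above. Of the 34, 28 leaned higher in Scx- and their median was 0.16, beside 0.015 over all genes. In all 6 genes with an unadjusted p under 0.05, the 2 highest of the 8 libraries were replicates 1 and 2 of Scx-. The same held for Rrp12, Polr1a, Nop14 and Pes1, among others. In Npm1, Nop58 and Taf1d, among others, it did not hold. Those replicates 1 and 2 were the libraries with 17.2% and 20% muscle signal. Without that pair, a choice made after the data were seen, the members' median was 0.00, with 0 members called. When muscle signal was instead allowed for in the fit, with every library kept, the members' median was 0.161, beside 0.158 without that allowance. It was 0.017 over all genes in that fit, again with 0 members called. These alternatives differed, and why they did was not tested. On the deposited scale the members' median was -0.08, beside -0.22 over all genes. Of the 86 genes called in all, 20.9% were higher in Scx-, against 3.73% of 993 on the deposited scale. The interval for Rrp12 was -0.26 to 2.0, and those of the other 33 lay within -0.45 and 1.28. No member passed the test of whether the genotype difference itself changed between the days (limma interaction, 0 of 34 at an adjusted or an unadjusted p under 0.05, with 0.018% of all genes at the adjusted), and estimates ran from -0.25 for Taf1d to 0.45 for Nop2.

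**Figure D4:**
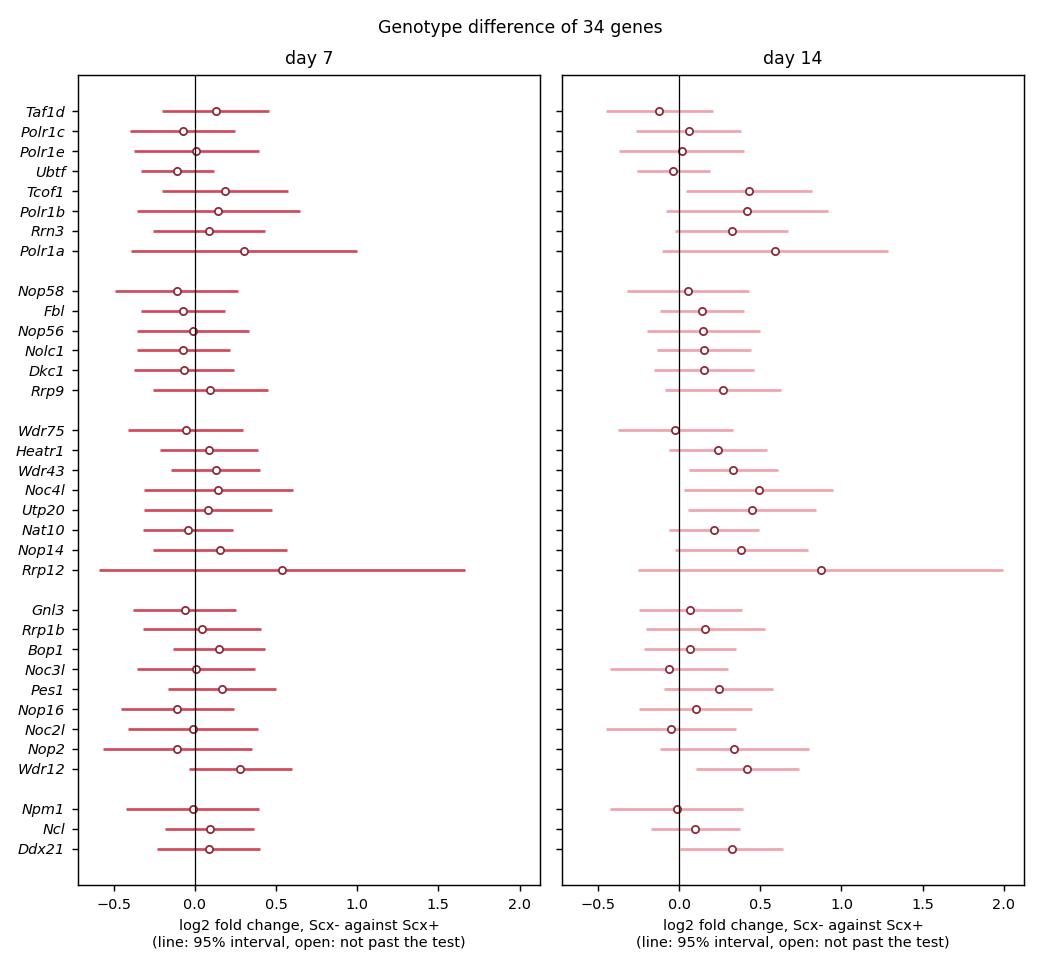
Log2 fold change of Scx- against Scx+ (x axis) for each of the 34 genes at day 7 and at day 14, with the 95% interval of the fit as lines. None of the 34 passed the adjusted test at either day, and the intervals of Rrp12 are the widest, reaching 2.0 at day 14.

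Bop1 needs a separate account, because Scx lies inside it. In GENCODE M21 on GRCm38, Bop1 spans chr15:76452989-76477277 on the minus strand and Scx chr15:76457452-76459458 on the plus strand, between exons of Bop1. Their exons share 0 bases and come no nearer than 1179 bases. Bop1 encodes a WD-repeat subunit of the PeBoW complex. Its signal was 2356.5, 2466 and 2067 in the controls, 3104, 3164, 2730.4 and 2475 in Scx+ and 3862, 3244.5, 3312 and 2407 in Scx- at day 7, and 2964, 2581, 2417 and 2701 in Scx+ and 3004.5, 2824, 2769 and 2557 in Scx- at day 14. The Scx+ and Scx- libraries overlapped at both days, while Scx itself was at 17.2 or less in every Scx- library and 2095.7 or more in every stimulated Scx+ library. Scx- against Scx+ gave a log2 fold change of 0.15 ± 0.13 (adjusted p = 0.883) at day 7, with a 95% interval of -0.14 to 0.43, and 0.07 ± 0.13 (adjusted p = 0.848) at day 14, with an interval of -0.22 to 0.35. Against the control Bop1 rose in Scx- at day 7 by 0.46 ± 0.15 (adjusted p = 0.0113), a call that ended without control replicate 3 (adjusted p = 0.0671). In the authors' deposited table the adjusted p of Bop1 was 0.0569 in Scx- and 0.0483 in Scx+ at day 7. In Scx+ at day 7 it was at 0.32 ± 0.15 (adjusted p = 0.0677) here, and it was called under 5 of 19 alternatives, at 0.99 (adjusted p = 2.1e-05) with library totals, 0.36 (adjusted p = 0.0408) with trimmed means, 0.38 (adjusted p = 0.0209) with the replicate block, 0.33 (adjusted p = 0.0499) with the compared groups alone and 0.39 (adjusted p = 0.0419) without Scx+ day 7 replicate 4. At day 14 it was at 0.21 ± 0.15 (adjusted p = 0.219) in Scx+ and 0.28 ± 0.15 (adjusted p = 0.126) in Scx-. With library totals these became 0.82 (adjusted p = 0.000168) and 0.76 (adjusted p = 0.000575), on the deposited scale the Scx- value was -0.06 (adjusted p = 0.772), and with the replicate block it was 0.34 (adjusted p = 0.0478).

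**Figure D5:**
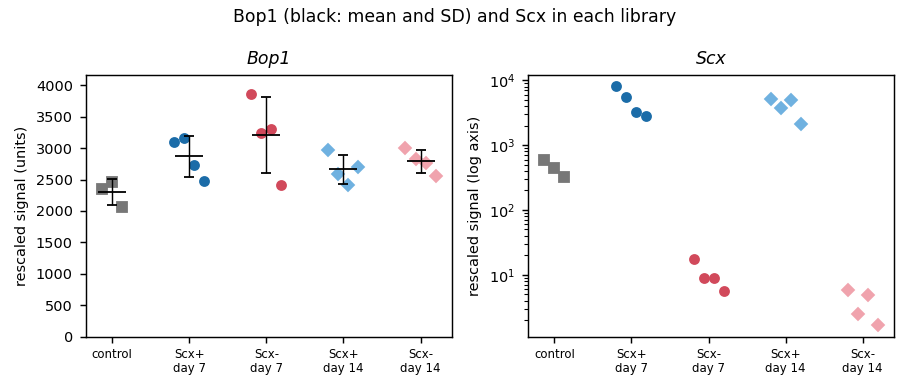
Rescaled signal of Bop1 (left, y axis from 0, with mean and SD) and of Scx (right, log axis) in each of the 19 libraries by group. Bop1 overlaps between Scx+ and Scx- at both days, while Scx is at 17.2 or less in all 8 Scx- libraries.

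Between the days no member passed in either genotype (limma), while the authors' deposited table lists 2 in Scx+ and 0 in Scx-. In Scx+, 7 members had an unadjusted p under 0.05, against 1757 of 16625 genes, and 0.0301% of all genes passed the adjusted test. These were Heatr1, Nop58, Fbl, Rrp1b, Nolc1, Dkc1 and Nop56, all lower at day 14, and 5 of the 7 belong to the snoRNP group. Heatr1, a scaffold of the small subunit particle, had the smallest p, at 1221, 990.2, 1389 and 1204 at day 7 and 909.9, 762, 714 and 929.9 at day 14, a change of -0.53 ± 0.14 (adjusted p = 0.179). Nop58 was next, at -0.64 ± 0.18 (adjusted p = 0.192). In 8 members every day 14 library lay below every day 7 library (Nop56, Nop58, Fbl, Nolc1, Wdr43, Rrp1b, Noc4l and Heatr1), where 6.11% of all genes did so. Of the 34, 29 leaned lower at day 14, and the median was -0.22, beside 0.00 over all genes. Markers of other cell types also leaned between these days in Scx+, with 0 called: muscle fibre genes higher at day 14 (22 of 22, median 2.44), and macrophage and erythroid markers lower (14 of 14, median -0.53, and 9 of 9, median -3.22). In Scx-, Nop58, Heatr1 and Rrp1b had an unadjusted p under 0.05, against 3636 genes, where 5.25% of all genes passed the adjusted test. Nop58 was at -0.47 ± 0.18 (adjusted p = 0.133) and Heatr1 at -0.38 ± 0.14 (adjusted p = 0.135). Rrp1b, at 797, 623, 742 and 755 at day 14 and 1024, 1181, 798 and 920.5 at day 7, was the single member without overlap, where 8.37% of all genes lay wholly below. The median in Scx- was -0.06, beside 0.02 over all genes. Of all calls there 26.6% were higher at day 14, against 8.45% with library totals and 4.3% on the deposited scale. On the deposited scale, where the median of all genes was -0.24, 9 members fell in Scx-. In Scx- 9 of 14 macrophage markers were called lower at day 14 (median -1.31), and muscle fibre genes leaned higher (21 of 22, median 2.09, with 0 called). The part of these markers in the differences between days was not tested.

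Members also differed in whether they carry small nucleolar RNA genes. By GENCODE M21, 7 of the 34 hold 27 snoRNA genes on their own strand: Taf1d, Nop56, Nop58, Ncl, Wdr43, Gnl3 and Dkc1. Of the 4 members that rose in all 4 groups against the control, Taf1d, Nop58 and Gnl3 are such hosts, and of the 8 that fell in all 4, Dkc1 is. Taf1d holds the most, 8, and each overlaps an annotated exon of it. In all, 18 of the 27 overlap a host exon and 12 have a row of their own in the table, so how their reads were shared with the host is not known. The snoRNA host genes outside the 34 were described by a separate list. Of its 23 tested genes, 7 rose and 3 fell in Scx+ and 7 and 3 in Scx- at day 7, 7 and 3 in Scx+ at day 14, and 6 and 2 in Scx- at day 14. Over all tested genes 61.3%, 58.2%, 55.9% and 43.9% passed in these comparisons. With library totals the counts of this list were 16 and 1, 16 and 0, 15 and 0, and 15 and 0, and on the deposited scale 2 rose and 3 fell in Scx- at day 14. In Scx+ at day 7, Snhg18 was at 1.83 ± 0.30 and Snhg17 at 1.24 ± 0.27, and Snhg14 at -2.25 ± 0.45.

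The other genes of the pathway were given by lists fixed with earlier results known, and here counts are for Scx+ at day 7, Scx- at day 7, Scx+ at day 14 and Scx- at day 14 against the control, in this order. Beside the counts of every list stand the shares of all tested genes: 33.8%, 32.3%, 30.9% and 25.5% rose and 27.5%, 25.9%, 25% and 18.3% fell. Of 80 tested nucleolar and ribosome assembly factors outside the 34, 11, 13, 6 and 10 rose and 22, 19, 29 and 19 fell, so these too were mixed. With library totals 50, 52, 39 and 36 of them rose and 2, 1, 5 and 2 fell. Ppan, a large subunit factor, rose by 1.55 ± 0.16 in Scx+ at day 7, and Riok1, a kinase of late small subunit maturation, by 0.89 ± 0.14. Tbl3, a small subunit scaffold protein, was lower at -0.96 ± 0.14, and Las1l, which takes part in spacer removal, at -1.18 ± 0.20. Taf1b, a partner of Taf1d in SL1, rose in all 4 groups, by 1.05 ± 0.18 in Scx- at day 7 and 1.12 ± 0.18 in Scx+ at day 14. Of 20 RNA polymerase III genes, 1 rose in each group and 7, 7, 7 and 5 fell, and with library totals 9, 9, 9 and 5 rose and 2, 0, 0 and 1 fell. Polr3gl, a subunit variant, was at -1.12 ± 0.14 and Maf1, the enzyme's repressor, at -1.31 ± 0.24 in Scx+ at day 7.

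Among 11 genes of the MYC network, 6, 6, 5 and 5 rose and 1, 1, 0 and 0 fell. With library totals 8 rose and 0 fell in each group, and on the deposited scale 1 rose and 1 fell in Scx- at day 14. Myc, the activator, rose by 1.23 ± 0.20 in Scx+ at day 7 and 0.66 ± 0.20 in Scx- at day 14, while Mxd3, which competes with MYC for MAX, was higher by 6.64 ± 0.75 in Scx+ at day 7. Mxd4, another such competitor, rose by 1.16 ± 0.23. Among 22 genes of mTOR signalling and translation control, 7, 8, 7 and 7 rose and 11, 11, 11 and 10 fell. With library totals the lean turned, with 9, 10, 10 and 10 higher and 7, 5, 6 and 5 lower. Akt1, a kinase upstream of mTOR, rose by 0.95 ± 0.12 in Scx+ at day 7, and Akt2, the form best known from muscle and fat, was at -2.0 ± 0.23. Eef2k, which slows elongation, was at -2.02 ± 0.25 and Tsc2, a brake on mTOR, at -1.26 ± 0.20. Of 11 genes of nucleolar stress and p53, 4 rose in each group and 3, 2, 3 and 1 fell. With library totals 8, 9, 7 and 9 rose and 2, 2, 2 and 1 fell, and on the deposited scale 2 rose and 2 fell in Scx- at day 14. Cdkn2a rose by 4.42 ± 0.57 and Trp53, which encodes p53, by 0.91 ± 0.13, and its target Ccng1 was at -3.15 ± 0.42 in Scx+ at day 7.

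Of 83 cytosolic ribosomal protein genes tested, 9, 9, 7 and 9 rose and 3, 2, 1 and 0 fell, with medians of 0.17, 0.16, 0.16 and 0.28. That median lay near the one over all genes at day 7, where the 34 members had -0.26 and -0.20. With library totals 70, 73, 64 and 70 of the 83 rose. Rpl39l and Rps4l, less common copies of ribosomal protein genes, rose by 3.31 ± 0.56 and 1.79 ± 0.29 in Scx+ at day 7. Rpl3l, the form made in striated muscle, was at -8.01 ± 1.38, and Rpl3, its common form, rose by 0.94 ± 0.21. Of these 8 lists, that of cell proliferation had the largest share of genes that rose: 22, 22, 21 and 20 of 25 rose and 0 fell, among them Aurkb, a mitotic kinase, at 7.66 ± 0.58 and Rrm2, of nucleotide synthesis, at 5.0 ± 0.42 in Scx+ at day 7. Between Scx- and Scx+, 0 genes of these 8 lists passed at either day, where 0.77% and 0.517% of all genes did. Between the days, 0 passed in Scx+, and in Scx- 5 proliferation genes were lower and 1 RNA polymerase III gene, Polr3gl, was higher at day 14, by 0.63 ± 0.13.

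The authors' deposited table of comparisons holds all 34 members among 15951 genes. At an adjusted p under 0.05 it lists 8 higher and 15 lower in Scx+ at day 7 against the control (61.6% of its genes), 6 and 12 in Scx- at day 7 (57.1%), 4 and 16 in Scx+ at day 14 (50.1%), and 4 and 7 in Scx- at day 14 (32%). In the authors' deposited table, Npm1, Taf1d, Nop58 and Gnl3 are the 4 that are higher in all 4 of these comparisons. It lists 0 members in Scx- against Scx+ at either day. Between days in Scx+ the authors' deposited table lists Heatr1 and Nop58 as lower at day 14, with log2 fold changes of -0.52 and -0.62 and adjusted p of 0.0462 and 0.035, and it lists 0 members between days in Scx-.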

How the data were processed

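Total RNA of mouse plantaris tendon was sequenced in 19 samples of 5 groups. The submitters' processing notes name FastQC, STAR, DESeq2 and the build mm10, with no versions given in the sources used here. The gene table the authors deposited holds a scaled signal per gene, not whole reads. Of low values, 36.4% to 67.6% per library lay within 0.1 of a whole multiple of the best step found. Reads could not be recovered from so partial a step, so depth is unknown and no count test was run. The authors also deposited a table of comparisons with log2 fold changes, standard errors and adjusted p-values, which is quoted only as theirs. Each of the 19 sample columns of the deposited table was assigned to a sample by its name, and 0 sample columns were left unused.

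Of 24972 genes, 13703 were above 0 in every library, and the medians of their ratios to the geometric mean gave scaling factors of 0.838 to 1.09. These differed by group: 1.07 to 1.08 in controls, 1.08 to 1.09 in Scx+ and 1.01 to 1.03 in Scx- at day 7. At day 14 they were 0.994 to 1.02 in Scx+ and 0.838 to 0.857 in Scx-. Rescaling thus raised Scx- at day 14 as a whole group against the others. A gene entered the test if 3 or more libraries reached a rescaled value of 10, which 16625 did, and values were taken as log2(value + 2) and fitted with limma 3.58.1 (trend and robust moderation, R 4.3.3) in 1 model of 5 groups, with Benjamini-Hochberg adjustment over all of them at 0.05. The fit was tested on simulated data with known changes. Alternatives were library totals, trimmed means of log ratios, no rescaling, other filters and pseudocounts, plain moderation, sample weights, the compared groups alone, a replicate block, a muscle covariate and leaving out each library. Leaving out the muscle-rich pair was added after the data were seen.

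Members and lists were chosen with earlier results of these data known. All 34 members could be named. Described in full were Bop1 and up to 4 members with the largest rise and fall per comparison, or the 2 with the smallest p where none passed, and up to 4 genes of each pathway list by smallest p. Gene positions came from GENCODE M21 and promoters from RefSeq. Other computations used Python 3.11.15 with pandas 2.3.3 and matplotlib 3.10.9.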

Additional observations from a re-analysis of the deposited data

Results flagged for a closer look

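In groups of 4 libraries, each member was checked for a library far from the other 3, by the gap to its nearest neighbour as a share of the group's range (Dixon's test at its 95% level). Chance gives such a gap in about 5% of groups, 6.8 of the 136 tested, and 2 were found. Nop2 was lowest in replicate 4 of Scx+ at day 7, at 1006.2 against 1140.4 for the nearest library, a gap of 0.914 of the range. Wdr43 was highest in replicate 2 of Scx+ at day 14, at 2124.4 against 1833.8 for the nearest, a gap of 0.937 of the range.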

How the results depend on the processing

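The counts of members called were recomputed under each alternative. With the muscle covariate 8 members were called in Scx+ and 12 in Scx- at day 7 against the control (19 and 21 without it), and with the compared groups alone 9 in Scx- at day 14 (15 otherwise). Over all genes the muscle covariate gave 6434 calls in Scx+ and 8346 in Scx- at day 7, against 10192 and 9677 without it. Sample weights called 3 in Scx+ at day 14 against day 7. Between days in Scx-, 1 was called with library totals, 9 on the deposited scale, 1 without the muscle-rich pair and 1 without Scx- day 14 replicate 4, against 0. Leaving out 1 library gave 17 to 20 in Scx+ and 14 to 21 in Scx- at day 7, 19 to 24 and 11 to 19 at day 14, 0 to 1 between days in Scx-, and 0 to 0 in the other 4 comparisons. With library totals 15 falls turned positive: in Scx+ at day 7 Dkc1 0.22, Rrp9 0.11, Noc2l 0.0766 and Tcof1 0.13, in Scx- at day 7 Dkc1 0.17, Nop14 0.0452, Nop16 0.27, Utp20 0.10, Rrp9 0.22 and Noc2l 0.0875, in Scx+ at day 14 Nop56 0.13, Nolc1 0.015, Nop16 0.0856 and Ddx21 0.0368, and in Scx- at day 14 Nolc1 0.037. Beyond the changed inputs of each alternative, the cause was not tested. Samples share replicate numbers, and deviations of same-numbered samples correlated at -0.428 to 0.35 (median -0.002), over 0.1 in 6 of 36 pairs. Such correlations cannot show whether the numbers mark a pairing or a shared batch, since muscle signal also differed between libraries of a group. With the replicate as a block 20, 18, 22 and 14 members were called against the control in Scx+ and Scx- at day 7 and Scx+ and Scx- at day 14, and 0 in each other comparison. Depth is unknown, and with 3 controls the precision rests on few libraries.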
